A study of Drosophila melanogaster with 12 samples.

Results

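The digestive proteases and maltases measured here are 30 genes whose names place them in 3 families of secreted gut enzymes. They were found by symbol in the annotation of an Affymetrix Drosophila Genome 2.0 array, taking each gene with a single-gene probe set whose symbol starts with Jon or Mal-A or ends in Try. The result was 13 Jonah proteases, 9 trypsins and 8 maltases, out of 11982 genes with a single-gene probe set. Each of the 30 had 1 probe set. Trypsins cut proteins after lysine or arginine. The Jonah genes of Drosophila encode chymotrypsin-like serine proteases of the midgut. Maltases are alpha-glucosidases that release glucose from maltose and related sugars, and all 3 families are best known from the midgut, not from the ovary.

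The ovaries came from newly eclosed virgin females of Drosophila melanogaster, 4 to 6 hours old, with about 150 pairs of ovaries pooled for each RNA sample. There were 4 genotypes at su(Hw), the gene for a zinc finger protein that binds gypsy insulators. Egg chambers at this age are younger than the stage at which they die without Su(Hw), and the series compares transcripts before that death. Tissue and genotype are given for every sample, although the source names read embryos while the titles, the tissue field and the dissection protocol give ovary.

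The mutant genotypes were su(Hw)f/su(Hw)v, called f/v below, which is fertile, and 2 sterile ones, su(Hw)2/su(Hw)v, called 2/v, and su(Hw)Pb/su(Hw)2, called Pb/2. The wild type was Canton S. Every genotype had 3 arrays, 12 in all. The f/v and 2/v females share the v allele, and the 2/v and Pb/2 females share the 2 allele. The labels give no shared genetic background for the mutants and Canton S, so a difference from wild type cannot be told apart from a difference between stocks. Nothing says whether the pools of a genotype came from separate crosses, so p-values measure the spread between these pools, which may be technical.

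Values are signals from the array scanner software, quantile-normalized over the 12 arrays and tested as log2(signal + 16) with limma, with Benjamini-Hochberg adjustment over the 11982 genes. A gene is called higher or lower at an adjusted p below 0.05. The added 16 makes a log2 difference understate the change of dim genes. A signal of 66.5 is taken as background, the 95th percentile over 27 control probe sets for bacterial RNAs. Signals of different probe sets are on no common scale, so each gene is compared with itself across genotypes.

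The 12 arrays had deposited medians from 96.5 to 132, and about 59.1% of probe sets lay above background on each after normalization. The su(Hw) probe set read 2591 to 2913 on f/v arrays, 81.4 to 129 on 2/v arrays, 85.8 to 212 on Pb/2 arrays and 3562 to 3999 on wild type arrays, so the arrays of both sterile genotypes were low and none went against its label. All 20 measured ovary genes used as markers (11 of the germline, 9 of the somatic cells) were above background on all 12 arrays. The 9 probe sets of hybridization controls, which are labelled RNAs added to the mix, read 1.23 times the wild type mean on f/v arrays, 1.40 times on 2/v arrays and 1.48 times on Pb/2 arrays.

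**Figure D1:**
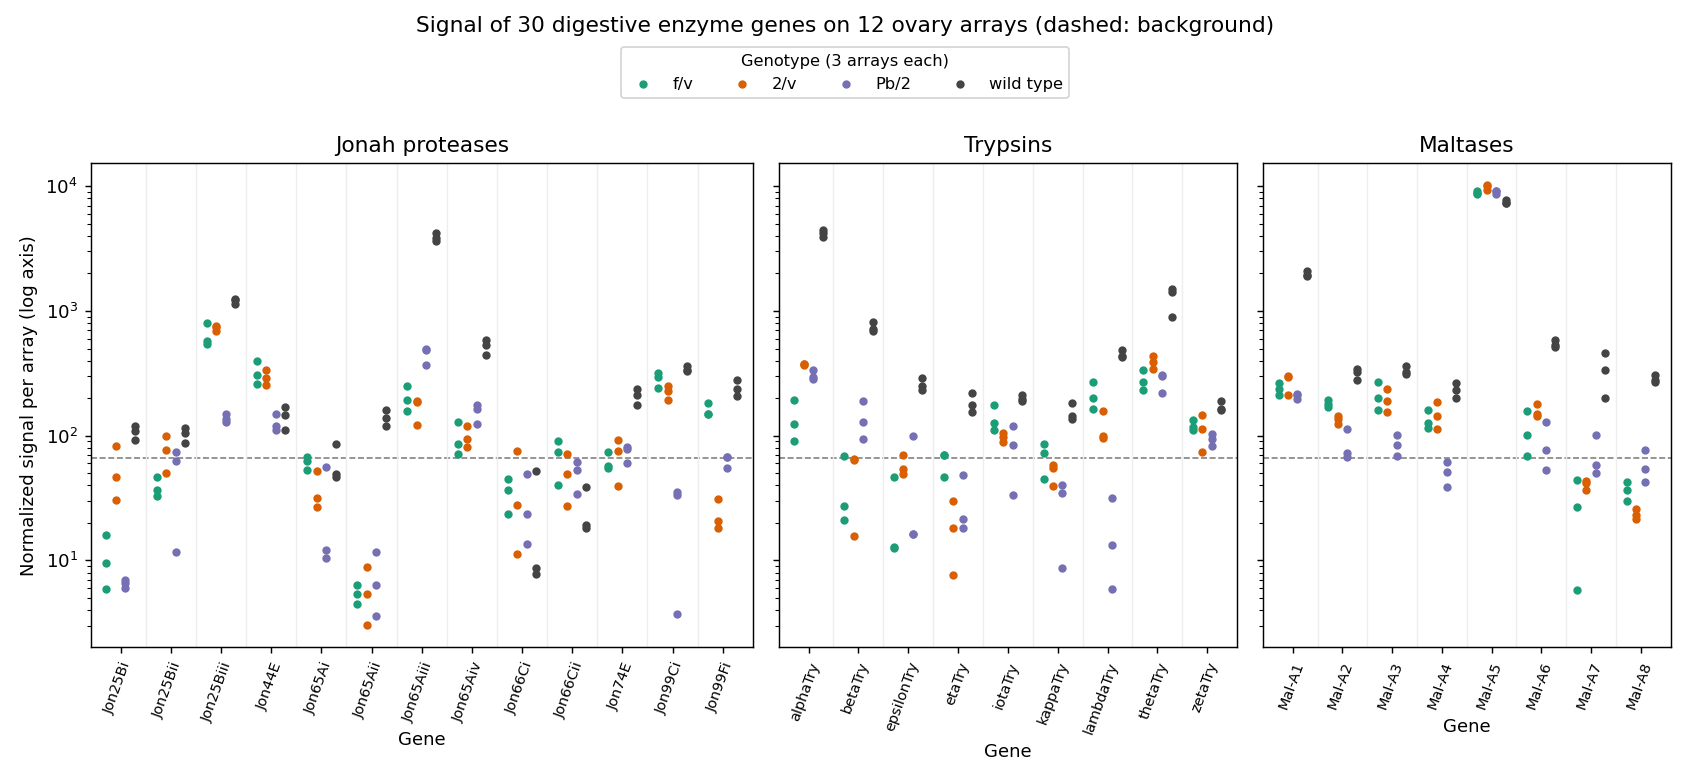
Normalized signal (log axis) of the 30 genes, 1 point per array, coloured by genotype, with the background of 66.5 dashed. Most wild type points stand above the mutant points of the same gene, while the lowest of the 12 Mal-A5 points is 7292.

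The digestive enzymes were brightest in wild type ovaries. The highest genotype mean was the wild type one for 25 of the 30 genes, f/v for 3 and 2/v for 2, and Pb/2 for 0. Counting genes above background on all 3 arrays of a genotype gave 17 in f/v, 16 in 2/v, 12 in Pb/2 and 27 in wild type. Jon65Ai, Jon66Ci and Jon66Cii were above background on all 3 arrays of no genotype, and 11 genes were above it on all 12 arrays. For 24 of the 30 genes, all 9 mutant arrays lay below all 3 wild type arrays, a pattern found for 9.85% of all genes, and for Mal-A5 alone they all lay above, found for 9.17% of all genes.

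In f/v ovaries 21 of the 30 genes were lower than in wild type, 3 were higher and 6 were not called, where 11.7% of all genes were lower and 12.3% higher. The median log2 difference of the 30 was -1.08, beside 0.02 for all genes. In 2/v ovaries 23 were lower, 2 were higher and 5 were not called, beside 15.9% and 17.1% of all genes, and the median log2 difference was -1.40, beside 0.02. In Pb/2 ovaries 24 were lower, 1 was higher and 5 were not called, beside 10.9% and 11% of all genes, with a median log2 difference of -2.01, beside 0.01. Over the alternative settings the median of the genes tested ran from -2.26 to -0.89 for f/v, from -2.19 to -0.99 for 2/v and from -2.82 to -1.42 for Pb/2. The -2.26 for f/v came from a filter on dim probe sets at the 60th percentile, which kept only part of the 30. Scaling to the hybridization controls, with all 30 kept, gave -1.59 for f/v. The 3 comparisons share the wild type arrays. In pooled tissue, fewer cells of a type and less RNA per cell cannot be told apart.

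**Figure D2:**
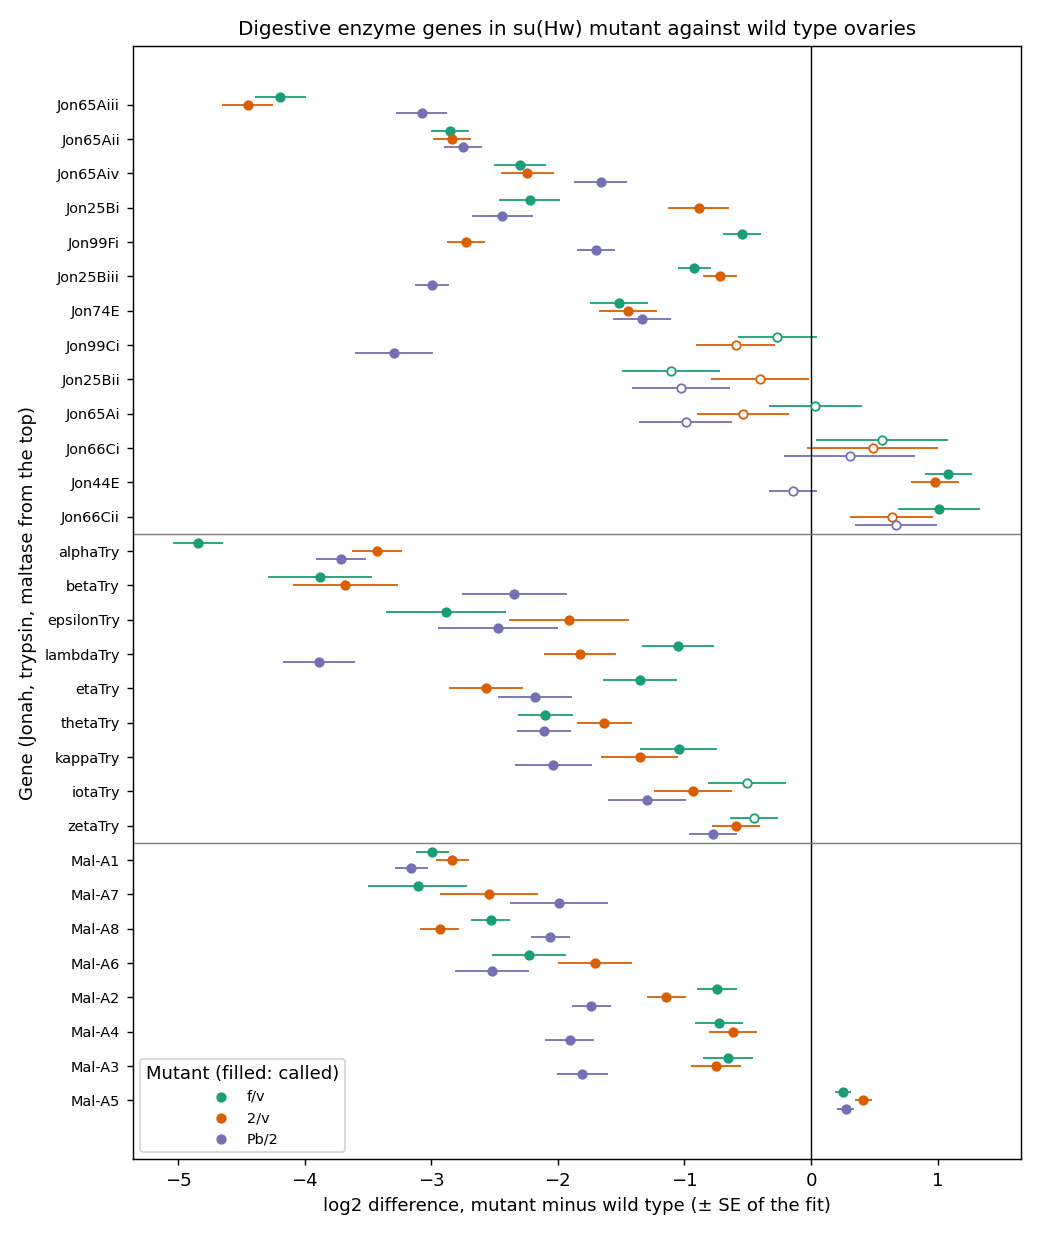
Log2 difference from wild type, on the log2(signal + 16) scale, for each of the 30 genes in f/v, 2/v and Pb/2 ovaries, with bars of 1 SE (3 arrays per genotype). Filled points are called. Most lie left of 0, down to -4.84 for alphaTry in f/v, and Mal-A5 lies right of 0 in all 3 genotypes.

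The trypsins were the family with the fewest exceptions. Of the 9, those lower than in wild type numbered 7 for f/v ovaries, 9 for 2/v ovaries and 9 for Pb/2 ovaries, and none was higher. The shares of all genes lower were 11.7% for f/v, 15.9% for 2/v and 10.9% for Pb/2. The 2 not called in f/v, iotaTry and zetaTry, had log2 differences of -0.50 and -0.45.

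For alphaTry (CG18444) the gap from wild type was widest in f/v. Its signal was 125, 194 and 89.9 on f/v arrays, 367, 375 and 379 on 2/v arrays and 335, 294 and 286 on Pb/2 arrays, against 4439, 3885 and 4226 on wild type arrays. No mutant array came near a wild type one, and the f/v arrays were the lowest of the 4 genotypes. The log2 difference from wild type was -4.84 ± 0.20 (SE) in f/v (adjusted p = 1.25e-07), the largest fall there among the genes above background in both genotypes. It was -3.43 ± 0.20 for 2/v (adjusted p = 1.14e-06) and -3.71 ± 0.20 for Pb/2 (adjusted p = 6.65e-07).

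Its close relative betaTry (CG18211) lies in the same gene cluster. Signals were 69.1, 21.1 and 27.2 for f/v, 64.3, 15.6 and 65.5 for 2/v and 129.8, 189 and 94.8 for Pb/2, against 821, 687 and 720.4 for wild type. Only 1 of the 3 f/v arrays and none of the 2/v arrays was above background, while all Pb/2 and wild type arrays were. The log2 difference was -3.88 ± 0.41 in f/v (adjusted p = 1.0e-04) and -3.68 ± 0.41 in 2/v (adjusted p = 1.1e-04), where wild type was at least 11.1-fold higher. Such bounds set the mean log2 signal of the brighter genotype against background. They are given only where every array of the brighter genotype was above background.

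Another trypsin, thetaTry (CG12385), kept a clear signal in every genotype. It read 271, 232 and 337 for f/v, 345, 433 and 392 for 2/v and 301, 220.4 and 309 for Pb/2, against 896, 1495 and 1411 for wild type. The lowest wild type array was still above all 9 mutant arrays.

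Among the trypsins lambdaTry (CG12350) separated Pb/2 from the other mutants. Its signals were 165, 199 and 271 for f/v, 96.5, 98.7 and 158 for 2/v and 31.4, 13.3 and 5.94 for Pb/2, against 425, 432 and 486 for wild type. All 3 Pb/2 arrays were below background and all other arrays above it. The log2 difference of Pb/2 from wild type was -3.89 ± 0.28 (adjusted p = 6.01e-06), with wild type at least 6.72-fold higher.

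The other trypsins had their highest mean in wild type too. Mean signals in epsilonTry were 24.0 ± 19.6 for f/v, 57.6 ± 10.9 for 2/v and 44.1 ± 48.0 for Pb/2, against 260 ± 29.9 for wild type (SD, n = 3 each). Its log2 difference in f/v was -2.88 ± 0.47 (adjusted p = 0.0016). Means of the remaining trypsins, etaTry, zetaTry, kappaTry and iotaTry, were 62.3 to 138 for f/v, 18.6 to 111 for 2/v and 28.0 to 93.1 for Pb/2, against 155 to 199.7 for wild type.

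The Jonah proteases were more mixed. Of the 13, those lower than in wild type numbered 7 for f/v, 7 for 2/v and 8 for Pb/2 ovaries, and those higher 2 for f/v, 1 for 2/v and 0 for Pb/2. Of all genes, 11.7%, 15.9% and 10.9% were lower, and 12.3%, 17.1% and 11% higher, in that order. The counts higher were therefore close to or below the shares of all genes. The 3 that never rose above background throughout a genotype belong to this family.

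Jon65Aiii (CG6483) gave 253, 194 and 157 for f/v, 121, 189.6 and 186 for 2/v and 369.5, 489 and 496 for Pb/2, against 4231, 3621 and 3845 for wild type. The wild type signals stood far above every mutant signal. Its log2 difference from wild type was -4.19 ± 0.20 for f/v (adjusted p = 3.56e-07), -4.45 ± 0.20 for 2/v (adjusted p = 2.31e-07) and -3.07 ± 0.20 for Pb/2 (adjusted p = 2.86e-06). The 2/v value was the largest fall in that genotype among the genes above background on both sides.

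The neighbouring Jon65Aiv (CG6467) read 71.5, 129 and 85.1 for f/v, 93.9, 119 and 81.6 for 2/v and 164, 123 and 175 for Pb/2, against 583, 442 and 538 for wild type. It was above background on all 12 arrays, with the wild type arrays highest. Jon65Aii, of the same 65A group, was far below background on all 9 mutant arrays, with signals of 3.01 to 11.6, against 119 to 162 on wild type arrays. Wild type was at least 2.08-fold higher than each mutant for Jon65Aii, and its log2 difference in 2/v was -2.84 ± 0.15 (adjusted p = 6.05e-07).

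Jon65Ai, also of that group, behaved otherwise. Its mean was 61.1 ± 7.27 for f/v, 36.7 ± 13.2 for 2/v and 26.3 ± 26.03 for Pb/2, against 60.9 ± 21.9 for wild type (SD, n = 3 each), and it was not called in any genotype. Jon66Ci and Jon25Bii were not called either, with means of 35.2 and 39.0 for f/v, 38.3 and 75.6 for 2/v and 28.6 and 49.2 for Pb/2, against 22.8 and 103 for wild type. Jon74E, with means of 62.3 for f/v, 68.9 for 2/v and 73.0 for Pb/2, against 208 for wild type, and Jon25Bi, with 10.5 for f/v, 53.3 for 2/v and 6.52 for Pb/2, against 107 for wild type, were lower in all 3.

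Jon25Biii (CG8871) and Jon99Ci (CG31039) were lowest in Pb/2. Jon25Biii read 542, 802 and 577 for f/v, 754, 744 and 691 for 2/v and 150.3, 137 and 128 for Pb/2, against 1252, 1141 and 1236 for wild type. The f/v and 2/v arrays overlapped each other and lay between those of Pb/2 and wild type, reaching neither. The log2 difference of Pb/2 from wild type was -2.99 ± 0.13 (adjusted p = 1.81e-07).

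For Jon99Ci the signals were 239.5, 296 and 321 for f/v, 227, 193 and 249 for 2/v and 35.1, 33.2 and 3.72 for Pb/2, against 364, 338 and 331 for wild type. The Pb/2 arrays were all below background and the f/v arrays just under the wild type ones. The log2 difference was -3.29 ± 0.31 in Pb/2 (adjusted p = 3.56e-05), with wild type at least 5.17-fold higher, while f/v (-0.27 ± 0.31) and 2/v (-0.60 ± 0.31) were not called.

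Jon44E (CG8579) went the other way in both v-allele genotypes. Its signals were 259.6, 394 and 308 for f/v, 337, 253 and 293 for 2/v and 119, 149.9 and 110.5 for Pb/2, against 145, 112 and 169.7 for wild type. Each f/v and 2/v array was above each wild type array, and the Pb/2 arrays overlapped wild type. The log2 difference was 1.09 ± 0.19 for f/v (adjusted p = 0.0022), 0.98 ± 0.19 for 2/v (adjusted p = 0.0030) and -0.14 ± 0.19 for Pb/2 (adjusted p = 0.66). Jon44E overlaps the gene CG8586, whose means were 118 for f/v, 169 for 2/v and 97.2 for Pb/2, against 114 for wild type, and which was not called in any of the 3.

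Jon66Cii was higher only by a narrow margin, and like Jon44E it is described because of its value. Its signals of 73.8, 91.1 and 40.1 in f/v stood against 18.2, 19.1 and 39.0 in wild type, where no array was above background. The lowest f/v array and the highest wild type array nearly met, and the log2 difference was 1.01 ± 0.33 (adjusted p = 0.048). The call ended when wild type replicate 1 or 2, or f/v replicate 1 or 2, was left out (adjusted p = 0.12 to 0.16).

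Of the 8 maltases, 7 were called lower in every mutant and 1 higher. Of all genes, 11.7% were lower for f/v, 15.9% for 2/v and 10.9% for Pb/2. Those higher were 12.3%, 17.1% and 11%, so the 1 higher was close to or below the share of all genes. Leaving out single arrays ended the calls of Mal-A3 and Mal-A4 in f/v (adjusted p up to 0.13 and 0.072) and in 2/v (adjusted p up to 0.064 and 0.11). Mal-A1 (CG8696) had 265, 236 and 211 for f/v, 295, 210.4 and 302 for 2/v and 199, 213 and 215 for Pb/2, against 2105, 1957 and 1914 for wild type. Mutant and wild type arrays were far apart and the mutants close together. The log2 difference was -2.99 ± 0.13 for f/v (adjusted p = 1.97e-07), -2.83 ± 0.13 for 2/v (adjusted p = 2.93e-07) and -3.16 ± 0.13 for Pb/2 (adjusted p = 1.16e-07).

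Mal-A6 (CG30360) read 101, 159 and 68.1 for f/v, 149.6, 143 and 178 for 2/v and 76.8, 53.2 and 129.8 for Pb/2, against 537, 516 and 585 for wild type. Mal-A3 (CG8695) read 160.4, 271 and 199.6 for f/v, 155, 237 and 191 for 2/v and 102, 84.4 and 68.2 for Pb/2, against 315, 327 and 359 for wild type. Wild type arrays were again the highest for both genes, with the gap to the nearest mutant array smaller for Mal-A3.

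Mal-A7 (CG11669) read 5.84, 44.4 and 26.8 for f/v, 37.0, 43.3 and 41.9 for 2/v and 57.9, 50.2 and 101 for Pb/2, against 458, 199 and 337 for wild type. All f/v and 2/v arrays were below background, and the 3 wild type arrays were widely spread. The log2 difference in f/v was -3.11 ± 0.39 (adjusted p = 2.9e-04), with wild type at least 4.71-fold higher. Mal-A8, next to it, was below background on all f/v and 2/v arrays, and its log2 difference in 2/v was -2.93 ± 0.16 (adjusted p = 6.38e-07), with wild type at least 4.29-fold higher. The others, Mal-A2 and Mal-A4, had means of 182 and 134 for f/v, 134 and 148 for 2/v and 85.1 and 50.3 for Pb/2, against 315 and 232 for wild type.

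Mal-A5 (CG30359) was the exception in direction, and is singled out after its values were seen. It read 8794, 9090.25 and 8699.7 for f/v, 9402, 10245 and 10107.5 for 2/v and 9155, 9175 and 8645 for Pb/2, against 7739, 7292 and 7292 for wild type. Every mutant array was above every wild type array, by a small step. The log2 difference was 0.25 ± 0.07 for f/v (adjusted p = 0.020), 0.41 ± 0.07 for 2/v (adjusted p = 0.0010) and 0.27 ± 0.07 for Pb/2 (adjusted p = 0.014). The f/v call ended without wild type replicate 2 or 3 or f/v replicate 2 (adjusted p = 0.062 to 0.068), and the Pb/2 call without wild type replicate 2 (adjusted p = 0.052) or Pb/2 replicate 1 (adjusted p = 0.053).

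These rises depended on the scale. With each array scaled to its hybridization controls, the median log2 difference of all genes moved to -0.34 for f/v, -0.56 for 2/v and -0.63 for Pb/2, and none of the 30 genes was called higher than wild type, so Mal-A5, Jon44E and Jon66Cii lost their calls. The counts lower and higher were then 24 and 0 for f/v, 26 and 0 for 2/v and 27 and 0 for Pb/2. Of all genes, 29.6% were called in either direction on that scale for f/v, 52.3% for 2/v and 65.7% for Pb/2. In the main fit these shares were 23.9%, 33% and 21.9%, so the larger counts went with a shift of all genes. Relative to the median of all genes on that scale, Mal-A5 stood at 0.34 for f/v, 0.56 for 2/v and 0.39 for Pb/2, and Jon44E at 0.84 for f/v, 0.74 for 2/v and -0.34 for Pb/2. On the same scale the median of the 30 genes stood at -1.25 for f/v, -1.63 for 2/v and -2.20 for Pb/2, relative to all genes.

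Without Mal-A5, the summed signal of the other 29 genes was 3674 to 4453 on f/v arrays, 3990 to 4267 on 2/v arrays and 2798 to 2947 on Pb/2 arrays, against 17793 to 19445 on wild type arrays. Summed trypsin signal was 1021 to 1149 for f/v, 1217 to 1310 for 2/v and 953 to 1104 for Pb/2, against 7417 to 7781 for wild type. The range of the mutants did not reach the wild type range in either sum.

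Most of the genes lie in clusters. By chromosome arm, 18 are on 2R, 7 on 3L, 3 on 2L and 2 on 3R. In a current gene table (Release 6 plus ISO1 MT), the 8 maltases follow each other with no other gene between, and so do 8 of the 9 trypsins, with iotaTry 6 genes further on. The Jonah genes form groups of 4 at 65A, 3 at 25B and 2 at 66C, and the others stand apart. Neighbours did not all move together: Mal-A5 lies between Mal-A4 and Mal-A6, both lower in all 3 mutants, and Jon65Ai, which was not called, lies beside Jon65Aii, lower in all 3. Probe sets of close relatives within a family may also bind each other's transcripts, which was not tested.

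**Figure D3:**
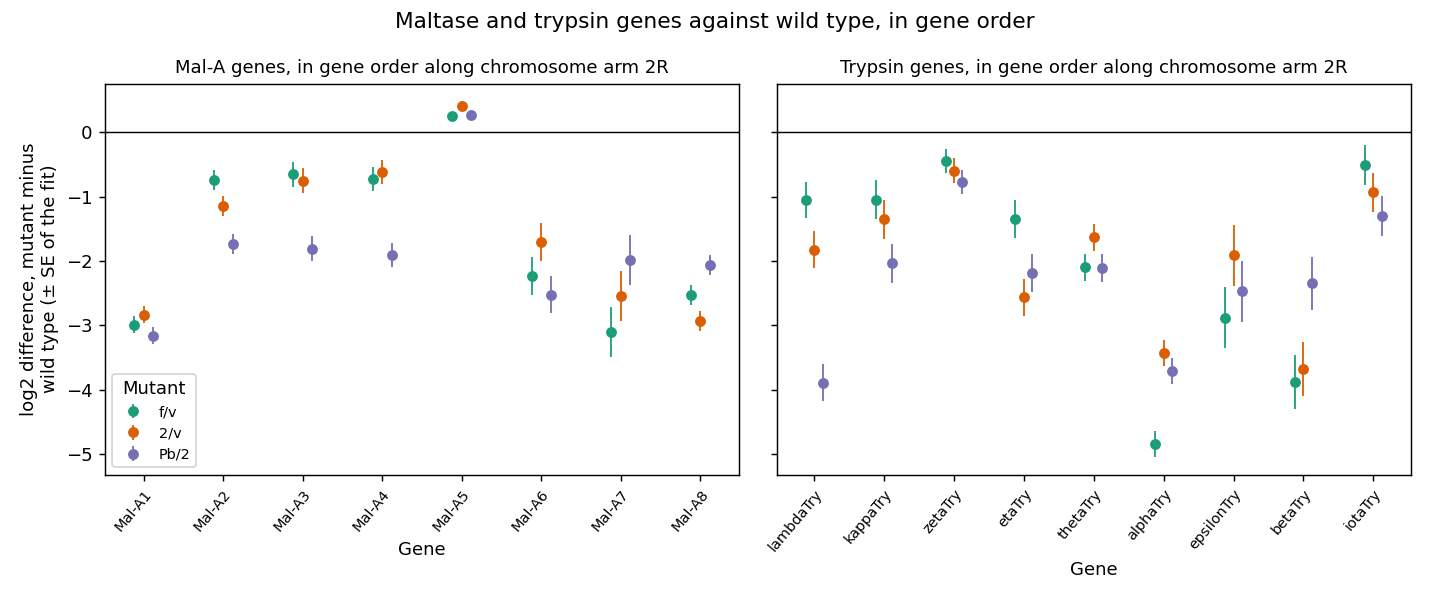
Log2 difference from wild type of the maltase and trypsin genes along chromosome arm 2R, with genes from left to right as the gene table orders them, 1 point per mutant and bars of 1 SE (3 arrays per genotype). Mal-A5 is above 0 between neighbours below 0, and among the trypsins Pb/2 is lowest at lambdaTry (-3.89) and f/v at alphaTry (-4.84).

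The differences between mutants are taken between mutant arrays, with the spread estimated over all 12 arrays. In 2/v against f/v, 2 of the 30 genes were lower, 2 were higher and 26 were not called, beside 8.69% and 9.29% of all genes, so the share of these genes called was close to that of all genes. The median log2 difference was -0.03. Jon99Fi was lower at -2.18 ± 0.15 (adjusted p = 8.22e-06), with 18.3 to 30.9 in 2/v and 149 to 183 in f/v, and f/v at least 2.41-fold higher. Expression of etaTry was lower at -1.22 ± 0.29 (adjusted p = 0.018), with all 2/v arrays below background and the f/v mean of 62.3 below it too. This call ended without f/v replicate 2 or 3 or 2/v replicate 2 (adjusted p = 0.055 to 0.063). The higher genes were alphaTry, at 1.41 ± 0.20 (adjusted p = 9.0e-04), and Jon25Bi, at 1.33 ± 0.24 (adjusted p = 0.0041). For Jon25Bi all f/v arrays were below background, and so was the 2/v mean of 53.3. Fitted on the arrays of these 2 genotypes alone, 5 genes were called, beside 12.6% of all genes, so again close to the share of all genes.

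In Pb/2 against f/v, 8 genes were lower, 3 were higher and 19 were not called, beside 6.62% and 6.28% of all genes, with a median log2 difference of -0.27. Scaling to the hybridization controls made this 12 lower and 2 higher, with 16.5% of all genes then called in either direction. Among the genes lower were Jon99Ci (-3.03 ± 0.31, adjusted p = 1.4e-04), lambdaTry (-2.84 ± 0.28, adjusted p = 1.2e-04) and Jon25Biii (-2.07 ± 0.13, adjusted p = 5.09e-06). Jon44E was lower at -1.23 ± 0.19 (adjusted p = 0.0019) and Mal-A4 at -1.18 ± 0.19 (adjusted p = 0.0026). All Pb/2 arrays were below background for Jon99Ci, lambdaTry and Mal-A4, and f/v was at least 4.26-fold, 3.12-fold and 2.00-fold higher for them, in that order. In the other direction betaTry was higher at 1.53 ± 0.41 (adjusted p = 0.037), a call that ended without f/v replicate 2 or 3 or Pb/2 replicate 1 or 2 (adjusted p = 0.092 to 0.13). The remaining called genes ran from -1.15 to -0.99 (Jon99Fi, Mal-A3, Mal-A2) and from 1.12 to 1.13 (Jon65Aiii, alphaTry). Fitted on the arrays of these 2 genotypes alone, 9 genes were called, beside 8.93% of all genes, and alphaTry (adjusted p = 0.054) and betaTry (adjusted p = 0.071) were not.

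The sterile genotypes also differed from each other. In Pb/2 against 2/v, 8 genes were lower, 3 were higher and 19 were not called, beside 6.49% and 5.42% of all genes, with a median log2 difference of -0.34. Jon99Ci (-2.70 ± 0.31, adjusted p = 8.9e-04), Jon25Biii (-2.28 ± 0.13, adjusted p = 1.65e-05) and lambdaTry (-2.07 ± 0.28, adjusted p = 0.0025) were lower here too. Jon25Bi was lower at -1.55 ± 0.24 (adjusted p = 0.0045) and Mal-A4 at -1.29 ± 0.19 (adjusted p = 0.0036), whereas Jon65Aiii was higher at 1.37 ± 0.20 (adjusted p = 0.0034). With all Pb/2 arrays below background, 2/v was at least 3.34-fold higher for Jon99Ci, 1.72-fold for lambdaTry and 2.17-fold for Mal-A4. For Jon25Bi all Pb/2 arrays were below background, and so was the 2/v mean of 53.3. Jon44E, Mal-A3 and Mal-A2 were lower by less, at -1.12, -1.06 and -0.59, and Jon99Fi and Mal-A8 higher, at 1.03 and 0.88. For Jon99Fi and Mal-A8 all 2/v arrays were below background, and so were the Pb/2 means of 63.4 and 57.7. Fitted on the arrays of these 2 genotypes alone, 8 genes were called, and Mal-A3 (adjusted p = 0.052), Mal-A8 (adjusted p = 0.064) and Mal-A2 (adjusted p = 0.14) were not. The calls over all genes then numbered 396, against 1427 with all 12 arrays. Pb/2 against f/v and Pb/2 against 2/v share the Pb/2 arrays.

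**Figure D4:**
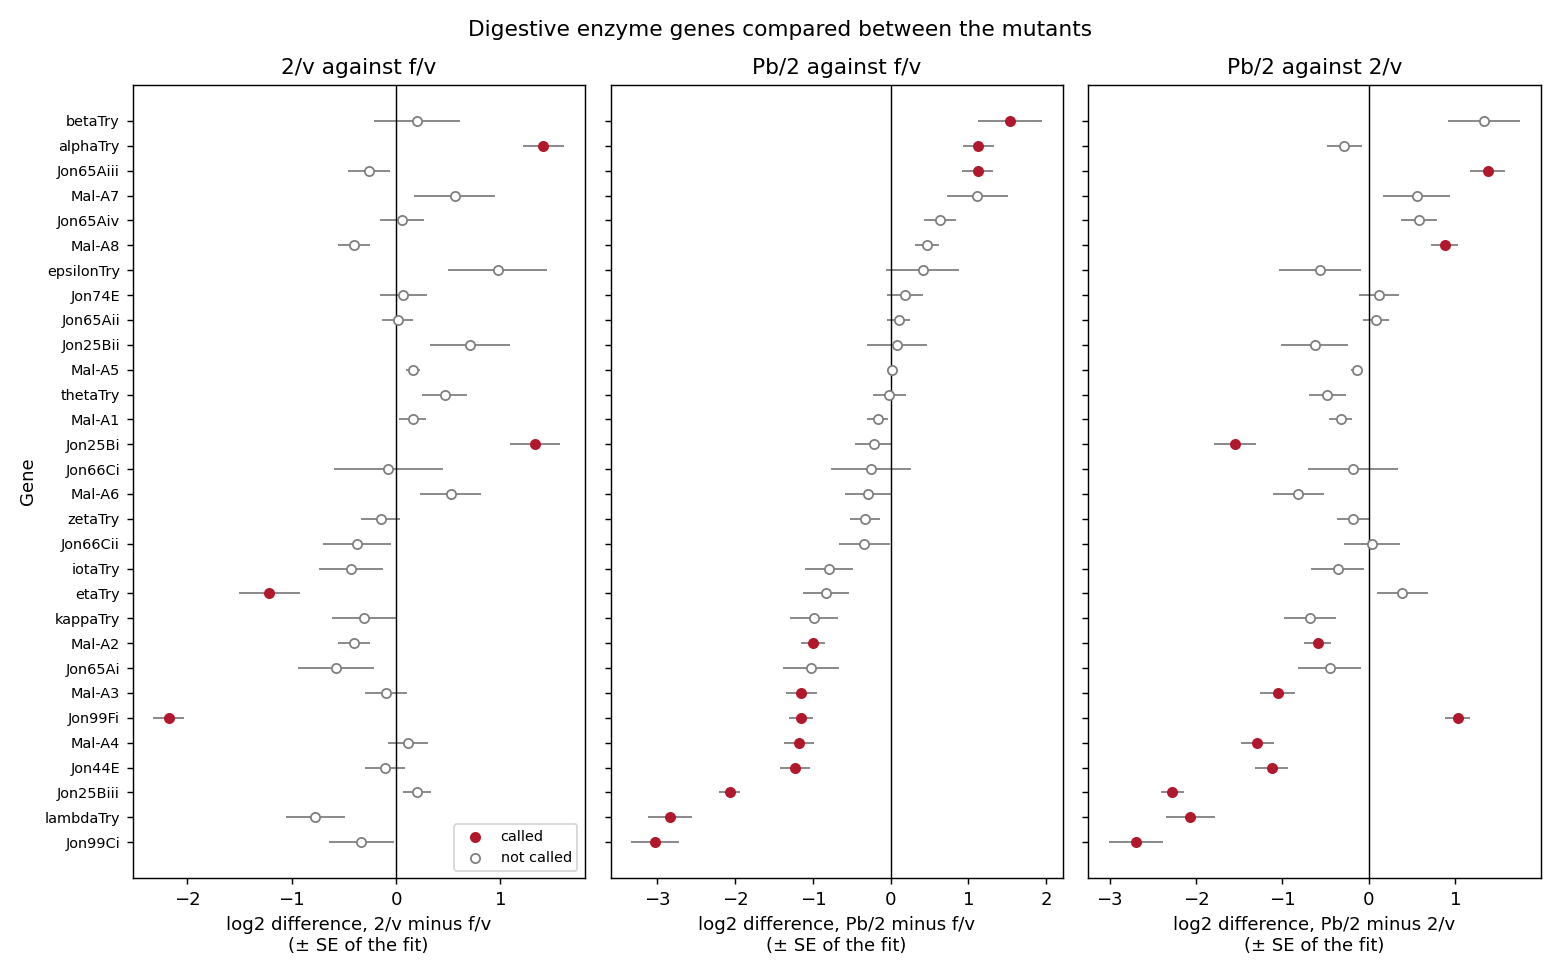
Log2 difference of the 30 genes between the mutants (2/v against f/v, Pb/2 against f/v and Pb/2 against 2/v), with bars of 1 SE and called genes filled. Jon99Ci, lambdaTry and Jon25Biii lie furthest left in both Pb/2 panels, with Pb/2 below background for Jon99Ci and lambdaTry, and Jon99Fi in the 2/v panel.

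Other enzymes listed as digestive were lower as well, though by no means all of them. The list of 46 genes had 36 measured. It included genes of the lysosomal alpha-mannosidase family (LManI and LManIII to LManVI), so it is broader than enzymes secreted into the gut. Those lower and higher than in wild type numbered 14 and 2 for f/v (beside 11.7% and 12.3% of all genes) and 15 and 4 for 2/v (beside 15.9% and 17.1%). For Pb/2 they numbered 19 and 3, beside 10.9% and 11%. Their median log2 difference was -0.60 for f/v, -0.56 for 2/v and -1.11 for Pb/2. The aspartyl protease gene Bace had a log2 difference of -5.17 in f/v and -4.52 in 2/v, and the carboxypeptidase gene CG12374 had -4.54 for f/v, -4.15 for 2/v and -4.57 for Pb/2. For CG12374 no mutant array was above background, and wild type was at least 7.85-fold higher than each mutant. Ser12, a serine protease gene, rose by 2.83 in 2/v, where it was at least 2.09-fold higher than in wild type, which was below background. The maltase gene Mal-B2, above background on all 12 arrays, also had higher means in the mutants. They were 2058 for f/v, 1964 for 2/v and 1718 for Pb/2, against 878 for wild type. Summed signal of the list was 5871 to 6806 for f/v, 5559 to 6407 for 2/v and 4103 to 4399 for Pb/2, against 10764 to 11571 for wild type. LManIV, LysP, LysS, CG6592, CG18417 and CG6271 were below background on every array.

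Markers of the gut other than enzymes were listed as 16 genes, of which 13 were measured. Those lower and higher than in wild type numbered 3 and 1 for f/v, beside 11.7% and 12.3% of all genes, 3 and 1 for 2/v, beside 15.9% and 17.1%, and 1 and 1 for Pb/2, beside 10.9% and 11%. mex1, a midgut gene, was lower, at -1.09 ± 0.18 for f/v (adjusted p = 0.0015), -0.90 ± 0.18 for 2/v (adjusted p = 0.0034) and -1.54 ± 0.18 for Pb/2 (adjusted p = 1.5e-04). Peritrophin-A, which encodes a chitin-binding protein, was higher, at 2.92 ± 0.17 for f/v (adjusted p = 1.57e-06), 3.49 ± 0.17 for 2/v (adjusted p = 3.89e-07) and 3.07 ± 0.17 for Pb/2 (adjusted p = 8.92e-07). Cad87A, a cadherin gene, was lower at -0.45 ± 0.13 for f/v (adjusted p = 0.034) and -0.71 ± 0.13 for 2/v (adjusted p = 0.0027). Peritrophin-15a was lower at -1.12 ± 0.31 for f/v (adjusted p = 0.024) and -1.10 ± 0.31 for 2/v (adjusted p = 0.020), both below background, with wild type at least 1.22-fold higher. The summed signal of the 13 was 13554 to 16569 for f/v, 11052 to 12164 for 2/v and 13000.2 to 13587 for Pb/2, against 12452 to 15280 for wild type. Most of it was cad, a gene of the posterior gut that is also transcribed in the ovary, with means of 11191 for f/v, 7738 for 2/v and 9131 for Pb/2, against 9675 for wild type. Without cad the sum was 3379 to 4207 for f/v, 3783 to 4006 for 2/v and 4140 to 4341 for Pb/2, against 3758 to 3994 for wild type. Most of that was Cad87A and Peritrophin-A, which moved in opposite directions. Cad87A means were 2111 for f/v, 1772 for 2/v and 2405 for Pb/2, against 2877 for wild type. Those of Peritrophin-A were 1051 for f/v, 1583 for 2/v and 1169 for Pb/2, against 126 for wild type. The sum therefore does not show how the dimmer markers moved. The gut regulators pros, byn and esg, and Muc68D, were below background on every array. The part of gut tissue in the enzyme differences was not tested.

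Genes of other tissues were counted in the same way. Over all genes, 11.7% were lower and 12.3% higher for f/v, and 15.9% and 17.1% for 2/v. For Pb/2 the shares were 10.9% and 11%. Of 14 muscle genes, 11 were lower and none was higher in each mutant, and their summed signal was 53657 to 56546 for f/v, 47325 to 52063 for 2/v and 53680 to 54498 for Pb/2, against 97282 to 101289 for wild type. TpnC41C, a troponin C gene, had log2 differences of -1.78 for f/v, -2.08 for 2/v and -1.98 for Pb/2, and sls, which encodes a titin-like protein, -1.40 for f/v, -1.998 for 2/v and -1.47 for Pb/2. Of 3 spermathecal genes, 2 were lower in f/v and 1 in each sterile genotype, with summed signals of 851 to 1017 for f/v, 1563 to 1730 for 2/v and 1442 to 1665 for Pb/2, against 3554 to 3952 for wild type.

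Of 6 fat body genes, 3 were lower for f/v, 4 for 2/v and 3 for Pb/2, and 1 was higher in each, namely Lip4, a lipase gene, which rose by 1.94 for f/v, 3.59 for 2/v and 2.85 for Pb/2. Of all genes, 11.7% were lower and 12.3% higher for f/v, 15.9% and 17.1% for 2/v, and 10.9% and 11% for Pb/2. The summed fat body signal was 11796 to 12201 for f/v, 9068 to 10598 for 2/v and 12893 to 13214 for Pb/2, against 13759 to 14969 for wild type. Hemocyte genes, 10 in number, had 0 lower and 1 higher for f/v, no more than the shares of all genes, 4 and 2 for 2/v, and 3 and 2 for Pb/2. The 2 higher for 2/v were close to the share of all genes. Their summed signals, 4919 to 5571 for f/v, 4680 to 4888 for 2/v and 4743 to 5443 for Pb/2, overlapped 4695 to 5010 in wild type. Malpighian tubule genes went mostly the other way: of 7, those lower and higher numbered 1 and 4 for f/v, 1 and 3 for 2/v and 1 and 5 for Pb/2. Vha16-4, among those higher in Pb/2, was below background on every array. The sum of the 7 was nevertheless 13839 to 14449 for f/v, 13952 to 15218 for 2/v and 13186 to 13906 for Pb/2, against 16255 to 16558 for wild type, with Oat, which encodes ornithine aminotransferase, lower in each mutant. The part of these tissues in the enzyme differences was not tested.

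**Figure D5:**
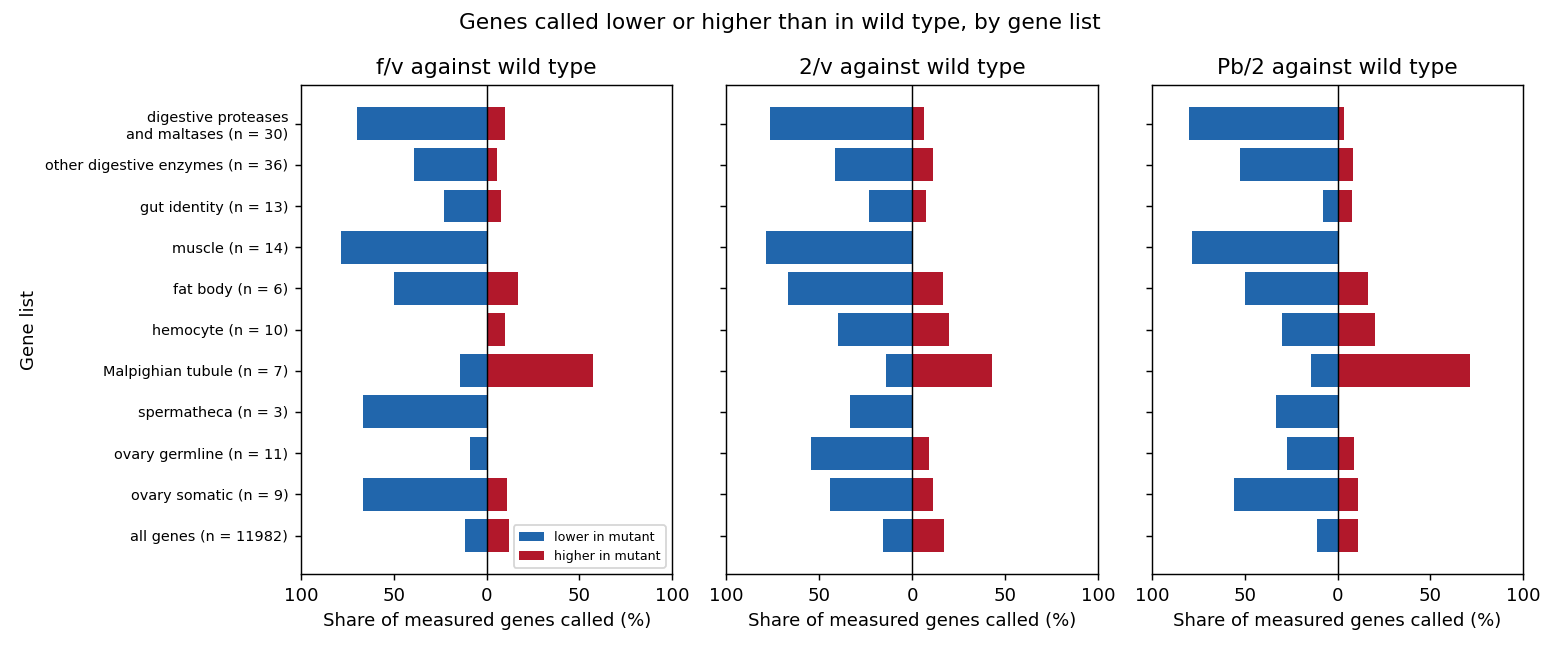
Share of the measured genes of each list called lower (left of 0) or higher (right of 0) than in wild type, in percent, with 1 panel per mutant and all genes at the bottom. The digestive proteases and maltases (21 of 30 lower in f/v) and muscle genes (11 of 14) reach furthest left in f/v, and Malpighian tubule genes (4 of 7 higher in f/v) furthest right.

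Of the ovary's own genes, 1 of 11 germline genes was lower for f/v, 6 for 2/v and 3 for Pb/2, and 0 were higher for f/v, 1 for 2/v and 1 for Pb/2. These f/v counts were no larger than the shares of all genes, 11.7% lower and 12.3% higher. For 2/v the shares of all genes were 15.9% lower and 17.1% higher, and for Pb/2 10.9% and 11%. The germline counts higher were below these shares too. The 9 somatic ovary genes had 6 lower and 1 higher for f/v, 4 and 1 for 2/v, and 5 and 1 for Pb/2, where the counts higher were close to or below the shares of all genes. Summed germline signals were 82492 to 89858 for f/v, 76589 to 76945 for 2/v and 80648 to 89675 for Pb/2, against 80306 to 90298 for wild type. Those of the somatic genes were 64063 to 65491 for f/v, 72917 to 74388 for 2/v and 73081 to 79316 for Pb/2, against 71444 to 75087 for wild type.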

How the data were processed

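Total RNA from pooled ovaries was amplified, biotin-labelled and hybridized to 12 arrays, 3 per genotype. The authors deposited 1 signal intensity per probe set and array, made with GCOS per the submitters' processing notes. Algorithm and scaling settings were not given in these sources, and every array has a trimmed mean of about 1500. Of 18952 probe sets, 183 are controls, 13647 have 1 gene symbol (11982 genes), 402 have several and 4720 have none. For 13544 probe sets with 1 symbol, the symbol was taken from the gene table through the gene number, whether or not it changed. A gene with several probe sets is represented by the one with the highest mean.

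From the deposited intensities, log2(signal + 16) was quantile-normalized and fitted over all 4 genotypes with limma 3.58.1 (lmFit and eBayes) in R 4.3.3, with no filter on dim probe sets. P-values are two-sided, with Benjamini-Hochberg adjustment over 11982 genes, and the call threshold was 0.05. The fit was tested on simulated data. The number of arrays, 3 a genotype with 8 residual degrees of freedom, limits the precision. Depth is not defined for arrays.

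The genes and the comparison lists were chosen with earlier results of these data known. Per-array values are given for the 14 genes with the highest genotype means, and statistics for up to 6 called genes with the largest change per comparison, plus Jon44E, Jon66Cii and Mal-A5, singled out after their values were seen. Alternatives changed the scaling, the pseudocount, the filter on dim probe sets, the handling of probe sets, the arrays in the fit, the spread model, a replicate block, the threshold and the arrays left out. Same-numbered arrays did not deviate together (correlations from -0.08 to 0.03 over 18 pairs), so the numbers were not taken as pairs. No sequences were used here. Figures were drawn with matplotlib 3.10.9.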

Additional observations from a re-analysis of the deposited data

Results flagged for a closer look

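Jon44E was higher than wild type in the genotypes that carry the v allele and was not called in Pb/2. Its log2 difference from wild type was 1.09 in f/v and 0.98 in 2/v, both called, and -0.14 in Pb/2, not called. The flag required opposite signs against wild type and a called difference between the mutants, so passing that test adds no support. That difference was -1.23 for Pb/2 against f/v (adjusted p = 0.0019) and -1.12 for Pb/2 against 2/v (adjusted p = 0.0063, limma in both cases). With arrays scaled to the hybridization controls, the rises were not called, at 0.50 for f/v (adjusted p = 0.088) and 0.18 for 2/v (adjusted p = 0.46).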

How the results depend on the processing

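Of the 100 calls made over the 30 genes and 6 comparisons, 76 held under every refit that tested them, and 24 ended under at least 1. Stricter thresholds were applied to the counts alone and do not enter these numbers. Keeping only probe sets above the 60th percentile on at least 3 arrays left 10 of the 30 genes to test. A gene bright on the 3 wild type arrays alone could pass this filter, so calls against wild type were partly built in. The counts called were 10 for f/v, 10 for 2/v and 10 for Pb/2 against wild type, 2 in 2/v against f/v, 6 in Pb/2 against f/v and 6 in Pb/2 against 2/v. Of all genes kept by this filter, 44.1%, 57.3% and 36.8% were called against wild type, in the same order. Between the mutants these shares were 35.6%, 26.1% and 30.7%, so the 2 of 10 in 2/v against f/v lay under the share of all genes. Among the called differences, 1 changed sign: Mal-A5 in Pb/2 against wild type was -0.24 (adjusted p = 0.13) with arrays scaled to the hybridization controls. Leaving out single arrays gave 17 to 20 genes called for f/v, 21 to 22 for 2/v and 23 to 26 for Pb/2 against wild type, 3 to 4 in 2/v against f/v, 10 to 13 in Pb/2 against f/v and 10 to 11 in Pb/2 against 2/v. The shares of all genes called were then 18.4% to 20.5%, 26.1% to 29.5% and 17.3% to 18.8% against wild type. Between the mutants they were 12.4% to 15.5%, 9.39% to 11% and 5.46% to 9.87%. Calls that ended without at least 1 of the arrays compared, beside those named above, were Mal-A3 (adjusted p up to 0.13), lambdaTry (0.079), Mal-A4 (0.072), kappaTry (0.11) and Jon99Fi (0.085) for f/v, iotaTry (0.11), zetaTry (0.11), Mal-A4 (0.11), Jon25Bi (0.063) and Mal-A3 (0.064) for 2/v, zetaTry (0.057) in Pb/2, and Mal-A2 (0.12) for Pb/2 against 2/v. With the replicate number as a block, 21 genes were called for f/v, 23 for 2/v and 25 for Pb/2 against wild type, beside 19.8%, 28.7% and 18.7% of all genes. Between the mutants, 4 were called in 2/v against f/v, 12 in Pb/2 against f/v and 10 in Pb/2 against 2/v, beside 13.8%, 9.91% and 6.31%. The 4 in 2/v against f/v were thus close to the share of all genes. Only 1 of 12 arrays was closest to an array of its own number. Under subtraction of array medians, all genes had a median log2 difference of 0.15 for f/v, 0.20 for 2/v and 0.16 for Pb/2. Signals below background bound a difference from 1 side only.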

Other observations

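Replicates of a genotype spread more for the 30 digestive enzyme genes than for genes in general, with a median SD within genotypes of 0.29 on the log2 scale, against 0.20 for all genes. Among the 27 above background in wild type by their mean, replicate 1 had the highest signal for 17 and replicate 2 the lowest for 13. Among the 19 above background in f/v by their mean, replicate 2 had the highest signal for 11.

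Log2 differences from wild type of the lipase-like CG6295 were -4.17 for f/v, -4.15 for 2/v and -4.46 for Pb/2. Its f/v and Pb/2 arrays were all below background, and wild type was at least 12.2-fold higher than each. Those of LManV and LManVI, of the lysosomal alpha-mannosidase family, were -4.29 and -4.28 for Pb/2, where LManV was below background and wild type at least 11.4-fold higher.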
